A study of Mus musculus with 12 samples.

Results

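Slco2b1, Galnt9 and Pcp4l1 are 3 of the 24562 genes in this RNA-seq table of mouse peritoneal macrophages, phagocytes of the abdominal cavity. They were selected on the near loss of their transcripts at 24 h of lipopolysaccharide (LPS), a bacterial cell wall component sensed by Toll-like receptor 4. The 24 h against 0 h values below therefore describe the choice and carry no test. The cells came from female mice on a high fat diet (HFD) or chow, and 12 libraries form the groups HFD 24 h, HFD 0 h, chow 24 h and chow 0 h with 3 libraries each, where the hours give the time in LPS. The labels name no strain, genotype, age, diet length or LPS dose, and they hold no 24 h group kept free of LPS, so an effect of LPS and one of time alone cannot be told apart. The labels do not say whether libraries of a group come from separate mice, so the p-values rest on a spread between samples that may be technical. Each gene is given by its RefSeq transcript row with the highest mean count, and levels are in CPM, counts relative to the library total after TMM scaling.

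Slco2b1 encodes an organic anion transporting polypeptide, a membrane carrier that takes up steroid sulfates, thyroid hormone and many drugs. In mouse brain its transcript is used as a marker of resting microglia, the macrophages of that tissue. Galnt9 encodes a polypeptide N-acetylgalactosaminyltransferase, one of the Golgi enzymes that attach the first sugar of mucin-type O-glycans to serine or threonine, and in human tissues it is best known from brain. Pcp4l1 encodes a small protein with an IQ motif, related to the calmodulin-binding protein Pcp4 (PEP-19), and is best known from neurons. LPS sets off a broad change of macrophage transcription in which inflammatory genes are induced and many genes of the unstimulated state are repressed.

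On GRCm38.p6 (mm10), RefSeq places Slco2b1 at chr7:99657804-99711340 on the minus strand, Galnt9 at chr5:110544032-110621383 on the plus strand and Pcp4l1 at chr1:171173264-171196268 on the minus strand. The promoter windows of the rows used are shown because the 3 genes were chosen for the same loss, and each RefSeq window runs from 250 bases before to 50 bases after the annotated start. Capitals mark matches to the motifs searched on both strands. For the GATA factors, among them Gata6 of peritoneal macrophages, the searched letters were AGATAA, with the last letter also allowed to be G, and the same pair of words with T as the first letter. For PU.1, the lineage factor of macrophages, they were GAGGAA. The nuclear receptor motif was searched as AGGTCA, and the motif of MAF factors, which take part in macrophage differentiation, as TGCTGA. For AP-1, a factor that many stimuli activate, the letters were TGANTCA, where N is any base. The general promoter elements were the GC box, searched as GGGCGG, the E-box CACGTG of basic helix-loop-helix factors, and the TATA box, searched as TATAAA. The Galnt9 window is chr5:110603255-110603554 on the plus strand, and the Pcp4l1 window is chr1:171196219-171196518 on the minus strand. For Slco2b1 a stretch of 30 bases around the only match in its window is given, at chr7:99706818-99706847 on the minus strand. The whole window is not shown because it lies inside the first exon of the corresponding GENCODE transcript.
Slco2b1: aaccagagatcaGAGGAAttcatggaacca
Galnt9: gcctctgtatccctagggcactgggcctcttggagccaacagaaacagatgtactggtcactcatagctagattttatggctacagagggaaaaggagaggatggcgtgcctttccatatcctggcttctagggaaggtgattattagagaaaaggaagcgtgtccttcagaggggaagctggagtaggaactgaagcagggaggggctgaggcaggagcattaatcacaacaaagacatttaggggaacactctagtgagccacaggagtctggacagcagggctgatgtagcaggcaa
Pcp4l1: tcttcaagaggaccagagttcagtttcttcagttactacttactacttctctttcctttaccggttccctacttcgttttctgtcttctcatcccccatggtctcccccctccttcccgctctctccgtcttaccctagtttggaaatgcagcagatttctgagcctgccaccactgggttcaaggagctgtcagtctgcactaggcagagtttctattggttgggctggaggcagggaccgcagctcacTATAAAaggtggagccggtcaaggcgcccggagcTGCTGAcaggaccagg

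No motif was found in all 3 windows. The Slco2b1 window held 1 PU.1 match, whose first base was at position 8, counted from 1 at the RefSeq start. Of 32851 RefSeq promoters of the same length, 28.3% hold such a match. The windows of the other 2 Slco2b1 starts held 1 PU.1 match each. That of the outermost start also held 1 AP-1 match, present in 7.81% of promoters. Pcp4l1 held TATAAA, present in 13.6% of promoters, and a MAF motif, present in 19.5%. The TATAAA began at the annotated start itself, where a TATA box is not usually placed. The Galnt9 window held 0 matches to the 8 motifs. Its GC content of 51.0% lay near the median of 52.7% over all promoters, as did 52.3% for Slco2b1 and 53.3% for Pcp4l1. The start of full-length Galnt9, which lies upstream at position 110544355, has a window of 73.7% GC with 3 GC boxes, a MAF motif and CACGTG. A match is a description of letters and not a site.

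Slco2b1, the organic anion carrier, was all but absent at 24 h. In HFD 24 h libraries it had 0, 0.0559 and 0 CPM, against 15.2, 23.7 and 12.1 CPM in HFD 0 h libraries. In chow 24 h libraries it had 0, 0.0897 and 0 CPM, against 18.2, 13.2 and 20.7 CPM in chow 0 h libraries. A single library of each 24 h group held a count, and no 24 h library came near any 0 h library, as the choice of the gene implies. The lowest 0 h library stood 217 times above the highest 24 h library in HFD and 147 times in chow. In counts, 1 read was assigned in HFD 24 h against 386 in HFD 0 h, and 1 in chow 24 h against 642 in chow 0 h. With counts pooled over the libraries and set relative to depth, 0.103% of the HFD 0 h level was left. Its exact 95% counting interval was 0.00261% to 0.580%. In chow 0.145% was left, with an interval of 0.00366% to 0.809%. These intervals cover counting error only, and reads without molecular identifiers are not independent molecules. The ratio of mean CPM, the measure used in the rest of the text, was 0.110% in HFD and 0.172% in chow.

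Galnt9, the O-glycan initiating enzyme, was low but detected in every 24 h library. It had 1.34, 0.615 and 1.15 CPM in HFD 24 h, against 14.6, 12.8 and 17.1 CPM in HFD 0 h. It had 0.970, 0.538 and 1.24 CPM in chow 24 h, against 12.7, 18.4 and 15.5 CPM in chow 0 h. The lowest 0 h library stood 9.52 times above the highest 24 h library in HFD and 10.2 times in chow, a gap for which the gene was chosen. The mean at 24 h was 7.01% of the mean at 0 h in HFD and 5.92% in chow. The fitted log2 fold changes, 24 h over 0 h, were -3.82 ± 0.32 in HFD and -4.03 ± 0.32 in chow (SE). Of the 3 genes it kept the largest share of its 0 h level in both diets.

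Pcp4l1, the small IQ motif protein, lay between Slco2b1 and Galnt9 in the share left. It had 0.0791, 0.448 and 0.323 CPM in HFD 24 h, against 9.36, 11.9 and 9.88 CPM in HFD 0 h. It had 0.298, 0.359 and 0.458 CPM in chow 24 h, against 11.2, 8.26 and 6.81 CPM in chow 0 h. The lowest 0 h library stood 20.9 times above the highest 24 h library in HFD and 14.9 times in chow, which follows from the choice of the gene. The HFD 24 h libraries held 16 counts in all and the HFD 0 h libraries 219, and chow 24 h held 15 against 325 in chow 0 h. The mean at 24 h was 2.73% of that at 0 h in HFD and 4.25% in chow, and the fitted log2 fold changes were -5.07 ± 0.40 and -4.51 ± 0.40 (SE). In HFD the value with the fewest reads was that of HFD 24 h replicate 1, which had the lowest Pcp4l1 level of all 12 libraries.

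**Figure D1:**
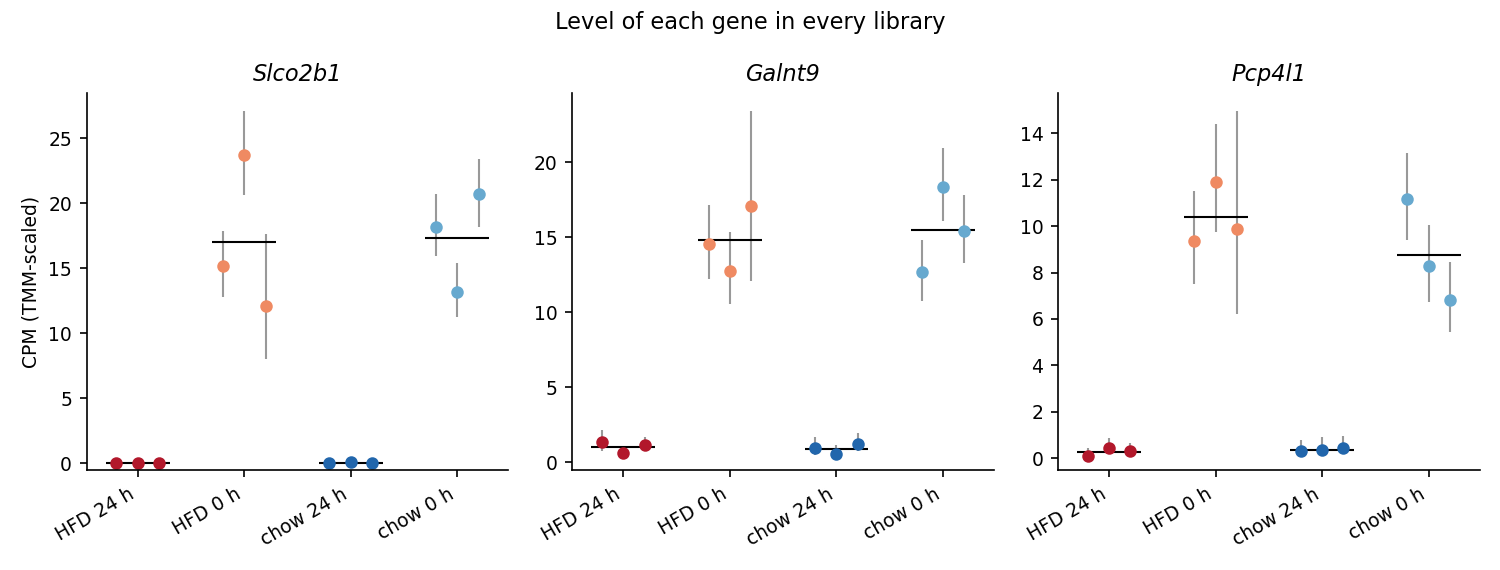
Levels of Slco2b1, Galnt9 and Pcp4l1 in CPM (linear axes that differ between panels) in each of the 12 libraries, by group; points are libraries, grey bars exact 95% Poisson counting intervals and black lines group means. Every 24 h library lies below every 0 h library for each gene, which follows from the choice of the genes. The widest intervals belong to HFD 0 h replicate 3, the shallowest library.

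Depth and lane were set beside these values. Library totals ran from 9135057 to 20688308 counts, apart from HFD 0 h replicate 3 with 2360244, where 3 counts equal 1.35 CPM. That library still held 27 counts of Slco2b1, 38 of Galnt9 and 22 of Pcp4l1. Without it, the share of the HFD 0 h mean left at 24 h was 0.0960% for Slco2b1, 7.59% for Galnt9 and 2.67% for Pcp4l1. A tag for lane 8 appears in the labels of every chow 24 h library and in that of HFD 24 h replicate 1 but in no 0 h label. Within chow, the lane cannot be told apart from LPS. Fits with the lane tag, given below, estimate its effect only from HFD 24 h replicate 1 against replicates 2 and 3. Whether a chow call that ends in such a fit depends on the lane was thus not tested. The untagged HFD 24 h replicates 2 and 3 showed the same near loss. Set against the HFD 0 h library with the same number in the labels, they held 0.236% and 0% of the Slco2b1 level, 4.81% and 6.76% of the Galnt9 level, and 3.76% and 3.27% of the Pcp4l1 level.

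Against the rest of the transcriptome the 3 genes sat at the far end. Among 7871 genes with at least 10 CPM at 0 h in both diets, ranked by the smaller of their falls in the 2 diets (log2 of mean CPM + 0.5), Slco2b1 came at rank 1 and Galnt9 at rank 5. Between them lay Mamdc2, Cd28 and Cdkn1c, and after them Matk, Slc46a3 and Gpr183. Mamdc2, a secreted MAM domain protein, had 37.1 CPM in HFD 24 h against 629 CPM in HFD 0 h. Cd28, known as a costimulatory receptor of T cells, had 1.50 CPM in HFD 24 h against 33.2 CPM in HFD 0 h, and Cdkn1c, a cyclin-dependent kinase inhibitor, had 14.8 CPM against 251 CPM. Pcp4l1, at 8.75 CPM in chow 0 h, was just outside that limit. With a limit of 5 CPM, chosen after the values were seen, 9300 genes could be ranked, and Slco2b1 came at rank 1, Pcp4l1 at rank 6 and Galnt9 at rank 8. At most 10% of the 0 h mean was left in both diets for 10 of these genes, and at most 1% for 1 of them, Slco2b1. The median gene kept 100.1% in HFD and 99.5% in chow. These ranks restate the choice of the genes and support nothing further.

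**Figure D2:**
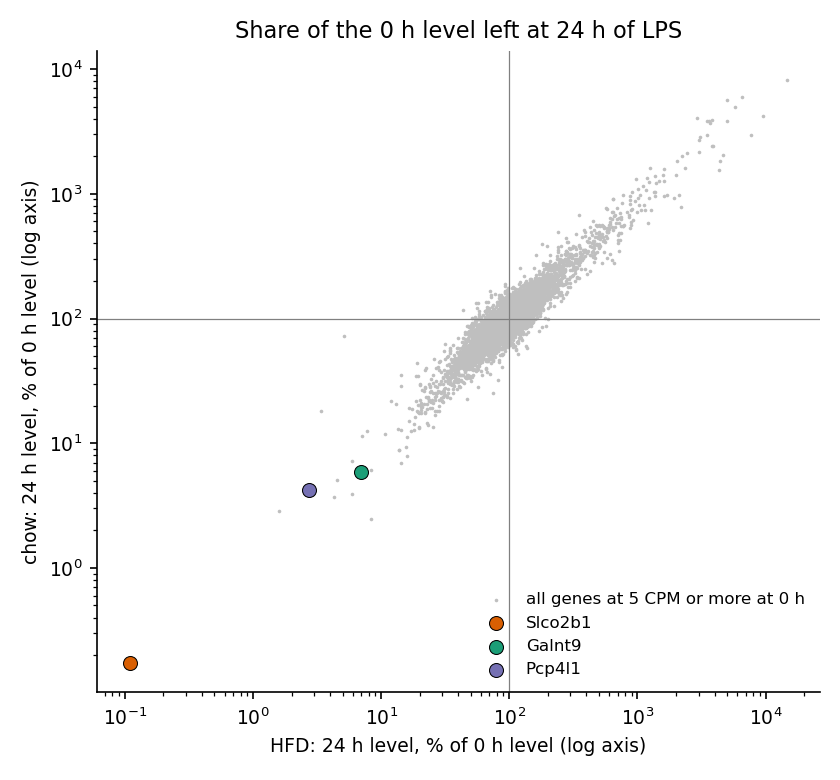
Each point is 1 of the 9300 genes with at least 5 CPM at 0 h in both diets; the axes (log scale) give the mean level at 24 h as a percentage of the mean at 0 h, in HFD (x) and chow (y), and grey lines mark 100%. Slco2b1 lies alone at 0.110% and 0.172%, while Pcp4l1 (2.73% and 4.25%) and Galnt9 (7.01% and 5.92%) lie at the low edge of the other genes.

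Diet in unstimulated cells was a comparison that the choice of the genes did not use directly. A near loss needs a clear level at 0 h, so the 0 h values still had a part in the choice. The question was whether HFD alone altered the 3 genes, and no such difference was detected. Slco2b1 averaged 17.0 ± 5.99 CPM in HFD 0 h and 17.4 ± 3.81 CPM in chow 0 h, Galnt9 14.8 ± 2.15 CPM and 15.5 ± 2.86 CPM, and Pcp4l1 10.4 ± 1.34 CPM and 8.75 ± 2.22 CPM (SD, n = 3 each). The log2 fold change, HFD over chow, was 0.0084 for Slco2b1 (95% interval -0.59 to 0.61), -0.090 for Galnt9 (-0.65 to 0.47) and 0.25 for Pcp4l1 (-0.39 to 0.89). By edgeR's quasi-likelihood test with Benjamini-Hochberg adjustment over 12641 genes the adjusted p was 1 for Slco2b1, 0.991 for Galnt9 and 0.983 for Pcp4l1, and the unadjusted p was 0.977, 0.739 and 0.417. None of the 3 passed, where 0.0870% of all genes did, 11 of 12641. The intervals allow a ratio of HFD to chow between 0.665 and 1.52 for Slco2b1, between 0.637 and 1.39 for Galnt9, and between 0.764 and 1.86 for Pcp4l1. Whether the LPS change differed between the diets was not tested for these genes, since the LPS values chose them.

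Per kilobase of the row used, Galnt9 had the highest level at 0 h and Slco2b1 the lowest. This order holds for the rows used only. The full-length Galnt9 row is longer, at 2883 bases against 1576, and held fewer counts, so its level per kb is lower. In HFD 0 h Galnt9 averaged 9.40 CPM per kb, Pcp4l1 6.58 and Slco2b1 3.89, and the libraries of the 3 genes did not overlap in this order. In chow 0 h the means were 9.84 for Galnt9, 5.55 for Pcp4l1 and 3.98 for Slco2b1, and the ranges of Pcp4l1 (4.32 to 7.08) and Slco2b1 (3.02 to 4.74) overlapped. Among 12363 tested genes with a known length, the chow 0 h levels stood at percentiles 58.9, 44.1 and 36.8, near the middle of the genes tested. At 24 h the order was the same, with 0.659 CPM per kb for Galnt9, 0.180 for Pcp4l1 and 0.00427 for Slco2b1 in HFD, and 0.582, 0.236 and 0.00684 in chow.

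The table holds 3 transcript rows for Slco2b1, 3 for Galnt9 and 1 for Pcp4l1, and the rows of a gene differ in where they start. The Slco2b1 row used, NM_001252530, starts between the other annotated starts and has a first exon of 651 bases that the other rows lack. It held 2 counts at 24 h and 1028 at 0 h, while the other rows held 1 and 905 and were equal to each other in all 12 libraries. Its surplus at 0 h was 29, 10 and 0 counts in HFD and 20, 17 and 47 in chow, so 5 of 6 libraries showed it. The single Slco2b1 count of HFD 24 h replicate 2 was also found only in this row. The Galnt9 row used, NR_104449, a noncoding RefSeq transcript of 6 exons and 1576 bases that starts inside the gene, differed by 1 count in total from the coding row NM_001122639 with nearly the same exons. Full-length NM_198306, with 11 exons and 2883 bases, held fewer counts, 69 at 24 h and 718 at 0 h, against 91 and 866 for the row used. This row has 1427 bases that the row used lacks, and the row used has 120 that it lacks. If each row counts the reads over its own exons, which no source used here states, more reads lay on those 120 bases than on the 1427. The row used covers the 3' part of the gene, where reads of the isoforms cannot be told apart.

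**Figure D3:**
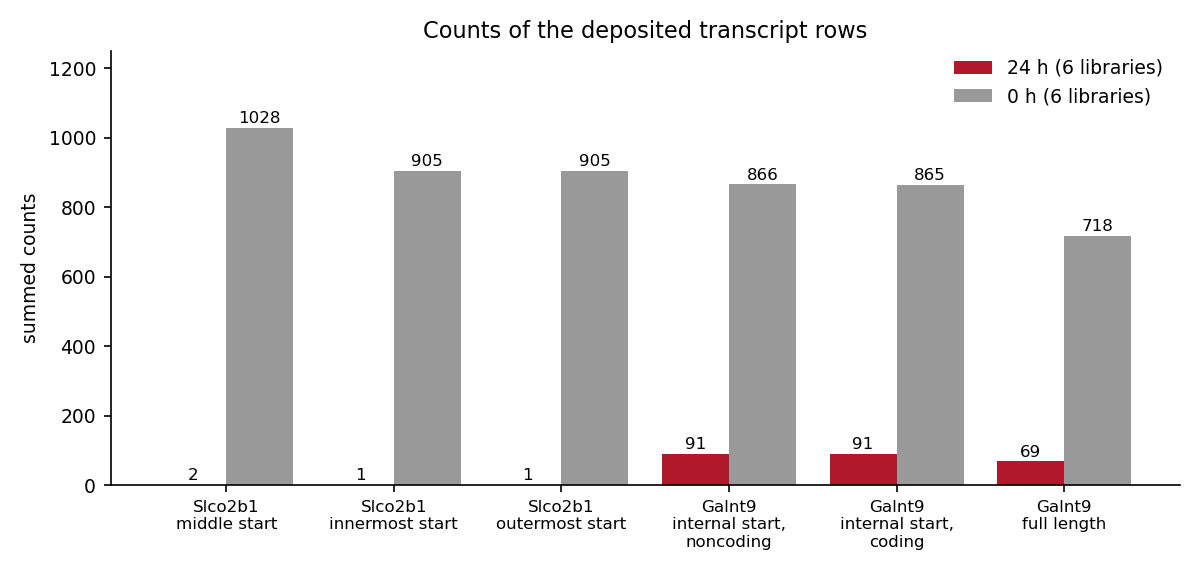
Counts summed over the 6 libraries at 24 h (red) and the 6 at 0 h (grey) for each deposited transcript row of Slco2b1 and Galnt9, with the sums printed above the bars. The Slco2b1 row with the middle start and the Galnt9 rows with the internal start hold the highest sums, and every row is far lower at 24 h.

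The GENCODE annotation has 2 antisense genes over Slco2b1, Gm15635 with 471 shared exon bases and Gm34280 with 0, and none over Galnt9 or Pcp4l1. Neither has a row in the table, and the counting is not stated to use strand, so reads of Gm15635 from the shared bases could not be told apart from those of Slco2b1. With 2 counts left over 6 libraries at 24 h, this bears on the 0 h level, and through it on the share left. The part of Gm15635 in either was not tested.

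Among the other organic anion transporting polypeptides, the genes that passed the test rose. Of 14 family members besides Slco2b1, 7 had no count in any library and 4 were tested. At 24 h of LPS 2 of the 4 rose in both diets, where 12.7% of all genes rose and 12% fell in HFD, and 13.7% rose and 12.9% fell in chow. Slco3a1, a carrier of prostaglandins and other anions, averaged 69.5 CPM in HFD 24 h and 10.8 CPM in HFD 0 h (log2 fold change 2.77 ± 0.23), and 105 CPM in chow 24 h and 14.6 CPM in chow 0 h (2.84 ± 0.21). Slco4a1, a carrier of thyroid hormone and prostaglandins, averaged 17.7 CPM in HFD 24 h and 3.31 CPM in HFD 0 h (2.43 ± 0.44), and 21.7 CPM in chow 24 h and 6.32 CPM in chow 0 h (1.78 ± 0.38). By edgeR's quasi-likelihood test the adjusted p of Slco3a1 was 7.4e-08 in HFD and 1.91e-08 in chow, and that of Slco4a1 was 0.000597 and 0.00216. With the lane tag fitted the chow call of Slco4a1 ended, at an adjusted p of 0.255. Slco2a1, the prostaglandin transporter, had 2.28 CPM in HFD 24 h and 1.58 CPM in HFD 0 h and passed in neither diet, nor did Slco5a1.

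Among 20 other carriers of organic anions and thyroid hormone, 12 were tested. Of these 3 rose and 2 fell in HFD, and 4 rose and 2 fell in chow. Over all genes 12.7% rose and 12% fell in HFD, and 13.7% rose and 12.9% fell in chow. The efflux pumps Abcb1a (log2 fold change 1.20 ± 0.19 in HFD and 1.45 ± 0.19 in chow), Abcc5 (0.92 ± 0.17 and 1.09 ± 0.17) and Abcc1, an exporter of leukotrienes and glutathione conjugates (0.71 ± 0.15 and 0.66 ± 0.15), rose in both diets. Abcc3 (-0.51 ± 0.14 and -0.45 ± 0.14) and Abcg2 (-0.93 ± 0.32 and -0.93 ± 0.31) fell in both. The fourth rise in chow was Slc10a7 (0.41 ± 0.14). The calls of Abcc3, Abcg2 and Slc10a7 ended without single libraries, and with the lane tag as a covariate those of Abcc1, Abcc5, Abcg2 and Slc10a7 in chow ended as well, with Abcg2 changing sign.

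The other polypeptide N-acetylgalactosaminyltransferases had smaller fitted changes than Galnt9, which follows from the choice of Galnt9 for its loss at 24 h. Of 18, 4 had no count and 9 were tested. In HFD 1 fell, and in chow 1 rose and 3 fell. Over all genes 12.7% rose and 12% fell in HFD, and 13.7% rose and 12.9% fell in chow. Galnt6 averaged 198 CPM in HFD 24 h and 277 CPM in HFD 0 h (log2 fold change -0.48 ± 0.12, adjusted p 0.00564), and 176 CPM in chow 24 h and 233 CPM in chow 0 h (-0.40 ± 0.12, adjusted p 0.0171, both by edgeR's quasi-likelihood test). Galnt7 (-0.80 ± 0.18) and Galnt12 (-1.27 ± 0.44) fell and Galnt18 (1.53 ± 0.51) rose in chow. None of these chow calls, Galnt6 included, held with the lane tag as a covariate, and those of Galnt6, Galnt12 and Galnt18 also ended without single libraries. The widely expressed Galnt1 and Galnt2, at 94.5 and 156 CPM in HFD 24 h and 92.4 and 163 CPM in HFD 0 h, did not pass. Of 15 enzymes that extend or cap O-glycans, 8 were tested, and 2 fell in each diet. The falling ones were the sialyltransferase St3gal2 (-0.51 ± 0.13 in HFD and -0.69 ± 0.13 in chow) and Gcnt1, which builds the core 2 branch (-0.53 ± 0.18 and -0.88 ± 0.18). The HFD call of Gcnt1 ended under 14 of 20 alternatives, and its chow call with the lane tag.

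Around Pcp4l1, 22 other genes of small IQ proteins, calmodulin and its kinases and phosphatase were listed, and 18 were tested. In HFD 2 rose and 4 fell, and in chow 1 rose and 4 fell. Over all genes 12.7% rose and 12% fell in HFD, and 13.7% rose and 12.9% fell in chow. Camkk1, a kinase that activates other calmodulin kinases, rose by a log2 fold change of 1.85 ± 0.49 in HFD and 2.78 ± 0.49 in chow. Camk1, one of its substrates, fell (-1.04 ± 0.17 in HFD and -1.05 ± 0.17 in chow), as did Calm2, 1 of the calmodulin genes (-0.90 ± 0.23 and -1.12 ± 0.23), and Dapk1, a calmodulin-dependent death kinase (-0.53 ± 0.18 and -0.60 ± 0.17). Ppp3cc, a catalytic subunit of calcineurin, rose in HFD (1.13 ± 0.27), Rcan1, a calcineurin inhibitor, fell in HFD (-0.55 ± 0.18) and Camk1d fell in chow (-0.48 ± 0.14). The calls of Dapk1, Rcan1 and Camk1d ended without single libraries, and with the lane tag the chow calls of Camk1, Calm2, Dapk1 and Camk1d ended. Pcp4 itself averaged 0.0264 CPM in HFD 24 h and 0 CPM in the other groups.

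**Figure D4:**
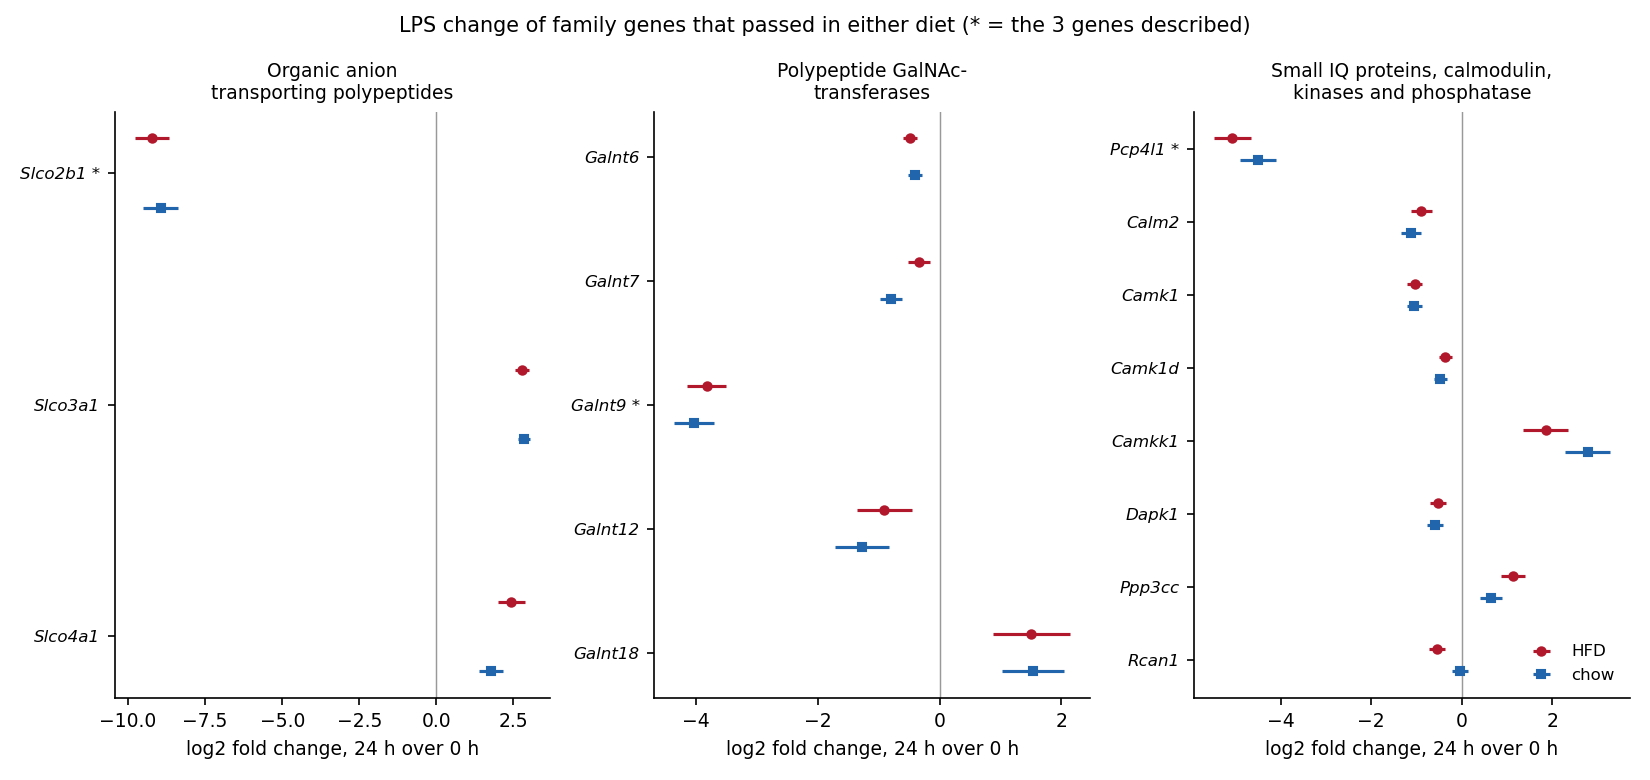
Fitted log2 fold change of 24 h over 0 h with its SE in HFD (red circles) and chow (blue squares) for the genes of the 3 families that passed the test in at least 1 diet, and for the 3 genes described; asterisks mark Slco2b1, Galnt9 and Pcp4l1, and the x axes differ. The fitted value of Slco2b1 depends on the prior count, since each 24 h group held 1 count, and the other family genes shown lie between log2 fold changes of -1.27 and 2.84.

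The genes were proposed as genes of resident macrophages, and the marker genes do not settle that. Of 8 general macrophage markers, 3 rose and 1 fell in each diet. Beside this and the marker counts below, 12.7% of all genes rose and 12% fell in HFD, and 13.7% and 12.9% in chow. Csf1r, the receptor of the macrophage growth factor, was among the 4 that did not pass, at 942 CPM in HFD 24 h and 866 CPM in HFD 0 h. Cd14, an LPS co-receptor, rose by 2.22 ± 0.22 on the log2 scale in HFD (SE) and 2.17 ± 0.22 in chow, and Fcgr1 and Adgre1 rose as well, the chow call of Adgre1 ending with the lane tag fitted (adjusted p = 0.135 by edgeR's quasi-likelihood test). Lyz2, the macrophage lysozyme, fell by 1.03 ± 0.14 in HFD and by 1.13 ± 0.14 in chow. Of 12 markers of large peritoneal macrophages, the resident kind, 2 rose and 3 fell in each diet. Itga6 had 48.0 CPM in HFD 24 h against 191 CPM in HFD 0 h, and Vsig4 and Cd5l fell as well, while Timd4 and Prg4 rose. Gata6, the factor that defines these cells, had 5.82 CPM in HFD 24 h and 10.1 CPM in HFD 0 h, and 10.9 CPM in chow 24 h and 13.1 CPM in chow 0 h, and did not pass. Of 7 tested markers of small peritoneal macrophages 3 fell in both diets, Mrc1, Ccr2 and Itgax. With the lane tag fitted the chow calls of Vsig4 and Cd5l ended, and without single libraries the HFD calls of Timd4 and Prg4. Markers of both kinds were thus present at 0 h, and the genes are named here only by their loss.

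Summed levels of all 3 macrophage lists were lower at 24 h in both diets, as were those of the mesothelium list in HFD. A sum follows the most abundant genes of a list. In the general macrophage list more genes rose than fell, and the median log2 fold change was 0.11 in HFD and 0.0075 in chow. The general macrophage list summed to 10186 to 12711 CPM in HFD 24 h against 14177 to 15754 CPM in HFD 0 h, and to 10086 to 11356 CPM in chow 24 h against 14367 to 15678 CPM in chow 0 h. The large peritoneal macrophage list summed to 143 to 211 CPM in HFD 24 h against 319 to 505 CPM in HFD 0 h, and to 162 to 184 CPM in chow 24 h against 359 to 438 CPM in chow 0 h. The small peritoneal macrophage list summed to 288 to 478 CPM in HFD 24 h against 878 to 1139 CPM in HFD 0 h, and to 329 to 397 CPM in chow 24 h against 1021 to 1308 CPM in chow 0 h. Mesothelium markers, of which 3 of 6 tested fell in HFD and 2 in chow, summed to 7.91 to 10.5 CPM in HFD 24 h against 15.0 to 26.1 CPM in HFD 0 h, and to 9.36 to 24.8 CPM in chow 24 h against 13.7 to 26.5 CPM in chow 0 h. Lrrn4, whose chow call ended with the lane tag, had 0.204 CPM in HFD 24 h against 4.53 CPM in HFD 0 h. The HFD calls of Upk3b and Krt8 ended without single libraries, with adjusted p by edgeR reaching 0.0630 for Upk3b without HFD 0 h replicate 1, and 0.0875 at most for Krt8 without HFD 0 h replicate 3 or HFD 24 h replicate 2. The chow call of Upk3b ended under 7 alternatives, among them the lane tag. Fibroblast, endothelium and adipocyte markers, most of it collagen, summed to 936 to 1009 CPM in HFD 24 h against 619 to 1262 CPM in HFD 0 h, and to 966 to 2683 CPM in chow 24 h against 706 to 2096 CPM in chow 0 h, with Adipoq at 0 in all libraries. The part of other cells in the result was not tested, and in bulk samples fewer cells of a type and less RNA per cell cannot be told apart. B cell markers summed to at most 10.7 CPM in HFD 24 h and 17.0 CPM in HFD 0 h, and to at most 10.9 CPM in chow 24 h and 23.8 CPM in chow 0 h. Mast cell markers summed to between 15.8 and 28.0 CPM in all libraries, and those of T and NK cells, granulocytes and dendritic cells to at most 6.42 CPM in any library.

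The genes whose log2 CPM followed each of the 3 most closely over the 12 libraries were named by Pearson's r, as a description in which the time in LPS and the libraries are shared. For Slco2b1 they were Slc43a2, an amino acid transporter (r = 0.994), Smpd3, a neutral sphingomyelinase (0.992), and Mindy1, a deubiquitinase (0.992). For Galnt9 they were Lpin1, a phosphatidate phosphatase (0.988), Trerf1, a transcription regulator (0.987), and Atp6v0a1, a subunit of the vacuolar proton pump (0.987). For Pcp4l1 they were Nr1d1, the nuclear receptor REV-ERBα (0.989), Bach1, a heme-sensing repressor (0.986), and Fnip2, a partner of folliculin (0.986). Among the 3 genes themselves r was 0.985 for Slco2b1 and Pcp4l1, 0.969 for Slco2b1 and Galnt9 and 0.956 for Galnt9 and Pcp4l1. High values follow from their choice for the same loss. Among 12640 genes Pcp4l1 came at rank 21 and Galnt9 at rank 109 for Slco2b1. For Galnt9, Slco2b1 came at rank 49 and Pcp4l1 at rank 128. For Pcp4l1, Slco2b1 came at rank 4 and Galnt9 at rank 122. The followers differed in size of change: Slc43a2 had 159 CPM in HFD 24 h against 428 CPM in HFD 0 h, whereas Smpd3 had 0.401 CPM against 9.32 CPM.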

How the data were processed

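RNA was sequenced from peritoneal macrophages in 12 libraries, with Qiagen and NuGen kits according to the labels. CASAVA 1.8.2, STAR 2.5.2b and mm10 are named in the submitters' processing notes. The counting tool and its strand setting: not given in the sources used here. The deposited table holds raw counts for 35745 transcript rows. Symbols came from RefSeq for 35440 rows and GENCODE for 188; the 117 others kept their identifiers. Each of 24562 genes was taken as its row with the highest mean. Columns were matched to libraries by their names. Transcript structures came from GENCODE M21 and promoter sequences from RefSeq on GRCm38.p6; all 3 genes matched, and the windows were checked to read along the gene strand.

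Counts were tested with edgeR 4.0.16 in R 4.3.3 (TMM, filterByExpr, robust glmQLFit and glmQLFTest, 4 group means over 12 libraries, Benjamini-Hochberg at 0.05), after the procedure was tested on simulated data. The biological coefficient of variation was 18.0% in common. Each SE is the log2 fold change divided by the root of F. Counting intervals are exact at 95%, and the interval of a log2 fold change is the estimate plus and minus its SE times the t quantile. Alternatives were other size factors and filters, DESeq2 1.42.0, only the groups compared, a replicate block, the lane tag as a covariate, summed rows, and each library left out. Library pairs within groups differed by more than sampling noise, so none was merged.

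The members, gene lists, motifs and tests were chosen with earlier results of these data known. Named genes are the 3 members; up to 4 per list and direction with the smallest adjusted p; the 8 largest falls shared by both diets; the 3 genes most correlated with each member; and defining cell markers. Other list members are named as examples chosen after their values were seen. A gene of the lists is not reported here.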

Additional observations from a re-analysis of the deposited data

How the results depend on the processing

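The share of the 0 h mean left stayed within 1 SD under every scaling, with rows summed and without each library, for all 3 genes and both diets. The SD is that of the ratios between same-numbered libraries. For Slco2b1 it was 0.136% in HFD and 0.392% in chow, above the shares themselves (0.110% and 0.172%), so even 0 would lie within it. Without single libraries the Slco2b1 share ran from 0 to 0.165% in HFD and 0 to 0.258% in chow. For Galnt9 it ran from 5.98% to 8.44% and 4.86% to 7.14%, and for Pcp4l1 from 1.94% to 3.71% and 3.76% to 4.93%. With rows summed Slco2b1 in HFD had 0.0387%. The replicate block joined libraries of both diets by replicate number, although the labels number them differently, so it follows no known pairing. The diet effect at 0 h changed sign for Slco2b1 with this block (-0.026) and ran from -0.32 to 0.16 without single libraries. For Galnt9 it ran from -0.21 to 0.051 and for Pcp4l1 from 0.092 to 0.47. Their lowest adjusted p in any alternative was 0.868, 0.967 and 0.832. Genes called for diet at 0 h numbered 11, against 23 with no filter, 18 with the replicate block, 69 with DESeq2, and 7 (without chow 0 h replicate 2) to 25 (without HFD 24 h replicate 2). With the lane tag as a covariate, 1509 genes were called for LPS in chow, against 3357. Other genes of the 5 families that rose or fell in chow then numbered 3 and 2, against 8 and 11, and Abcg2 in chow turned to 0.40. The lane effect in that fit rests on HFD 24 h replicate 1 against replicates 2 and 3. Without single libraries the LPS calls ran from 2535 to 3818 in chow and from 2520 to 3373 in HFD. The family genes that fell then numbered 4 to 10 in HFD (9 with all libraries; 4 without HFD 24 h replicate 3, and 5 without HFD 24 h replicate 1 or chow 0 h replicate 3) and 6 to 12 in chow (6 without replicate 1 and 7 without replicate 3 of chow 0 h or chow 24 h). Why these counts moved was not tested. Galnt9 moved to rank 8 with the limit of 5 CPM, from rank 5. Of 35 named calls in the families, 15 held in every alternative.

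Deviations of same-numbered libraries correlated at 0.0293 to 0.346 between times and at -0.139 to -0.0116 between diets at 0 h. Between times, 9 of 12 libraries correlated best with their own number, and between diets 0 of 6. The numbers may thus pair samples within a diet, but the labels do not state this and it was not tested. The main LPS tests used no pairing. Depth limits the 24 h levels: 3 counts equal 0.139 to 0.269 CPM there, above every 24 h value of Slco2b1. The Pcp4l1 value of HFD 24 h replicate 1, 0.0791 CPM from 1 count, also lay below this.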

Other observations

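Beside Slco2b1, Galnt9 and Pcp4l1, 7 of the 9300 genes with at least 5 CPM at 0 h in both diets kept at most 10% of their 0 h mean in both, a list made after the values were seen and given without a test. They were Mamdc2, Cd28, Cdkn1c, Smpd3, Armc2, Ramp1 and Cmbl. Armc2, known for its role in sperm flagella, had 0.124 CPM in HFD 24 h against 7.77 CPM in HFD 0 h, and 0.196 CPM in chow 24 h against 6.81 CPM in chow 0 h. Ramp1, the partner of the receptor for calcitonin gene-related peptide, had 0.716 CPM in HFD 24 h against 8.62 CPM in HFD 0 h, and 0.361 CPM in chow 24 h against 5.92 CPM in chow 0 h. Cmbl, a hydrolase, had 0.516 CPM in HFD 24 h against 6.15 CPM in HFD 0 h, and 0.133 CPM in chow 24 h against 5.35 CPM in chow 0 h.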
